A study of Mus musculus with 23 samples.

Results

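The genes that copy DNA and supply its building blocks were followed in C2C12, a mouse myoblast line that divides in serum-rich medium and fuses into myotubes when the serum is lowered. The group held 44 genes, picked by symbol for their roles in S phase out of the 32793 rows of the gene tables, by a rule that uses no measured value, although the list was drawn up with earlier results of these data known. There were 11 genes of the replicative helicase and its licensing, 6 of origin recognition and loading, 8 of the polymerases and primase, 6 of the sliding clamp and its loader, 3 of the single-strand binding complex, 2 of Okazaki fragment processing, 5 of nucleotide supply and 3 of chromatin assembly and histone mRNA processing. All 44 passed the filter on low counts and were tested among 14187 genes. The lowest estimated count of any of them in any library was 55, for Orc1.

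Poly(A)-selected RNA came from control cells (labelled WT) and from cells labelled Runx1KO, called KO here. Runx1 is a DNA-binding factor of the Runt family. Both kinds of cell were sampled while growing in 20% FBS (day 0) and again 1, 3 and 6 days after the switch to differentiation medium, which held 2% horse serum. The last time is day 6 in the titles, used here, and day 5 in the series text. Each of the 8 groups had 3 libraries except WT day 0, which had 2. The labels do not say whether the KO cells were a single clone or whether the replicates were separate cultures, so the p-values measure only the spread between these libraries, which may be technical.

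A replication origin is licensed when the origin recognition complex, Cdc6 and Cdt1 load the ring-shaped Mcm2-7 helicase onto DNA. In S phase Cdc45 and the GINS complex turn that ring into an active helicase, the primase and polymerases alpha, delta and epsilon copy the strands on a Pcna clamp, and ribonucleotide reductase supplies deoxynucleotides. Myoblasts leave the cell cycle before they fuse, and many of these genes are textbook targets of E2F factors, which the retinoblastoma protein restrains outside the cycle.

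Estimated counts summed to between 22197606 and 23684077 per library. Runx1 mRNA was not lower in the KO-labelled libraries: it averaged 84.0 CPM (counts scaled to library size) in WT and 119.8 in the KO-labelled libraries on day 0, and 153 and 311 on day 6, and the KO values lay above the WT values on every day without overlap. How the gene was altered is not given in the sources used here, so the mRNA level does not check the label, and the term "KO-labelled libraries" is used below. Myoblast markers were present in every library, and the summed level of 22 myotube markers rose from 14.04 to 17.65 TPM (a level that also divides by transcript length) in WT on day 0 to between 3339 and 3968 on day 6. In the KO-labelled libraries the same sum ran from 14.16 to 16.76 on day 0 and from 17440 to 20780 on day 6. Of 7 fat cell markers, the defining genes Adipoq, Lep and Cidec were listed at 0 in every group, and the sum of the list was 21.19 to 33.31 TPM in WT and 11.42 to 18.89 in the KO-labelled libraries. Of 7 leukocyte markers, Adgre1 was listed at 0 in every group and Ptprc in all but WT day 6. Their sum was 1.28 to 3.64 TPM up to day 3, and on day 6 it was 5.22 to 9.29 in WT and 15.66 to 17.5 in the KO-labelled libraries. The part of these markers in the results was not tested. Replicate 2 of day 1 in the KO-labelled libraries stood apart: its deviation from its group followed the GC content of genes with the opposite sign (Pearson r of -0.63 over 13265 genes, against 0.44 and 0.43 in replicates 1 and 3). As deviations from a group mean sum to 0, opposite signs are partly forced. A weaker split was seen in WT on day 6 (r of 0.21 in replicate 2 and -0.22 in replicate 3). Results that rest on it are given with and without it.

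The promoter windows of 5 genes are shown to place letters of the E2F type beside expression, since these 44 genes moved together. RefSeq windows (GRCm38.p6, 250 bases before to 50 after the annotated start) were found for 37 of the 44 genes. The letters searched were TTTCCCGC, TTTCGCGC, TTTGCCGC and TTTGGCGC on both strands, where matches may overlap, and capitals mark them. Mcm5, Mcm6 and Mcm7 encode helicase subunits, Orc1 the ATPase of the origin recognition complex and Gins3 a subunit of GINS.
Mcm5, chr8:75109259-75109558, plus strand: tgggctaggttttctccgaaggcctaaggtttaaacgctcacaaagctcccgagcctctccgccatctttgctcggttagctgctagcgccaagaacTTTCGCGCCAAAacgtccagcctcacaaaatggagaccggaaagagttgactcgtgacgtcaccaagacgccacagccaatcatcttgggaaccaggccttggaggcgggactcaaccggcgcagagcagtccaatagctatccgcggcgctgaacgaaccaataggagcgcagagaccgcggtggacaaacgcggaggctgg
Mcm6, chr1:128359656-128359955, minus strand: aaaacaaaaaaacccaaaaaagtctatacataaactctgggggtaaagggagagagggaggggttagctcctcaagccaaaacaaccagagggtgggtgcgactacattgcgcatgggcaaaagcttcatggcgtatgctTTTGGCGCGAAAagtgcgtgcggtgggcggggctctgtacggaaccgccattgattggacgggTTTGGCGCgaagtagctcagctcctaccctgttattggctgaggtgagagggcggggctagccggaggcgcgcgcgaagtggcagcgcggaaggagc
Mcm7, chr5:138171834-138172133, minus strand: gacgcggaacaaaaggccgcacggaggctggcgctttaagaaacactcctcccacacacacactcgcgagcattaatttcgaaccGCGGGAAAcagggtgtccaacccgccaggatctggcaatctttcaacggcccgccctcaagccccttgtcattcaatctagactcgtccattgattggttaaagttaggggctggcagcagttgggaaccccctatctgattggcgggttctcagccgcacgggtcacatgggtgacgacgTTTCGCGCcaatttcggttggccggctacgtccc
Orc1, chr4:108579204-108579503, plus strand: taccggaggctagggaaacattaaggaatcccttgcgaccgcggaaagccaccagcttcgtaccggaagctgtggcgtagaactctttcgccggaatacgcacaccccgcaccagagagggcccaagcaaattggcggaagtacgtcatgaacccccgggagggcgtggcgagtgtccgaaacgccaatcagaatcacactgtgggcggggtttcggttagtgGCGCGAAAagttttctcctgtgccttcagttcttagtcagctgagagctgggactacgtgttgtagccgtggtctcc
Gins3, chr8:95633309-95633608, plus strand: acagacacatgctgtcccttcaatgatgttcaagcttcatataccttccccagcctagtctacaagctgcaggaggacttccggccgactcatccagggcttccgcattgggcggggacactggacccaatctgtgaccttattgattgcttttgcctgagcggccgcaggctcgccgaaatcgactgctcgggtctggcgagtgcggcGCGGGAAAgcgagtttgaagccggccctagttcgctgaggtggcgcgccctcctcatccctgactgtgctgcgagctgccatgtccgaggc
Counted with the start base as 0, matches began at positions -153 and -149 in Mcm5, at -110, -106 and -47 in Mcm6, at -165 and 16 in Mcm7, at -27 in Orc1 and at -41 in Gins3. Some genes have more than 1 window, and a gene was counted where any of its windows matched. Such letters were found for 13 of the 37 genes (35.1%) and for 704 of all 27025 genes with windows of the same length (2.6%). The 13 genes were Cdc6, Cdt1, Gins3, Lig1, Mcm3, Mcm5, Mcm6, Mcm7, Orc1, Pola1, Pold1, Pole2 and Rfc3. The letters CCAAT were found for 24 of the 37 genes (64.9%, against 41.1% of all genes), and the letters TTTGAA for 5 (13.5%, against 20.2%). A match is a description of letters, not of a bound site. The median log2 fold change (log2FC) from day 0 to day 1 in WT was -1.48 over the 13 genes with E2F letters and -1.49 over the 24 without. For the KO-labelled libraries over WT the medians were 0.85 and 0.62 on day 1 (ranges of 0.23 to 1.18 and 0.12 to 0.99) and 0.77 and 0.62 on day 3 (0.20 to 1.17 and 0.27 to 1.00). These ranges overlap, and no test was made of the difference.

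All 44 genes fell when growing WT cells were moved to differentiation medium, and 24 and 26 of them fell less far on days 1 and 3 in the KO-labelled libraries. The 44 genes together held 0.358% ± 0.00417 (SD, n = 2) of all TPM in WT on day 0, 0.130% ± 0.00112 (n = 3) on day 1, 0.165% ± 0.009 on day 3 and 0.128% ± 0.0106 on day 6. The libraries labelled KO held 0.349% ± 0.0137, 0.196% ± 0.0113, 0.226% ± 0.0213 and 0.108% ± 0.00524 on the same days (n = 3 each). The ranges of WT and the KO-labelled libraries overlapped on day 0, from 0.355% to 0.361% in WT and from 0.340% to 0.364% in the latter. They did not overlap on the later days: the KO-labelled libraries were the higher ones on days 1 and 3 (0.183% to 0.205% against 0.129% to 0.131%, then 0.201% to 0.240% against 0.157% to 0.174%) and the lower ones on day 6 (0.104% to 0.114% against 0.121% to 0.140%). Both time courses had a partial rise between days 1 and 3. In bulk RNA, fewer dividing cells and less of these mRNAs per cell cannot be told apart.

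**Figure D1:**
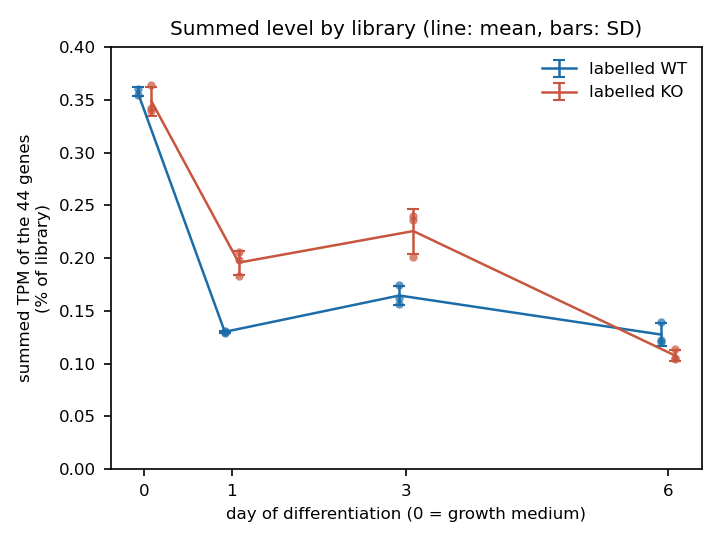
Summed TPM of the 44 genes as a percent of all TPM (y axis, from 0) in each library (points) by day (x axis), for WT and for KO-labelled libraries, with group means joined by lines and SD bars. Values start near 0.35% in both, and the KO-labelled libraries lie above WT on days 1 and 3 and below it on day 6.

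**Figure D2:**
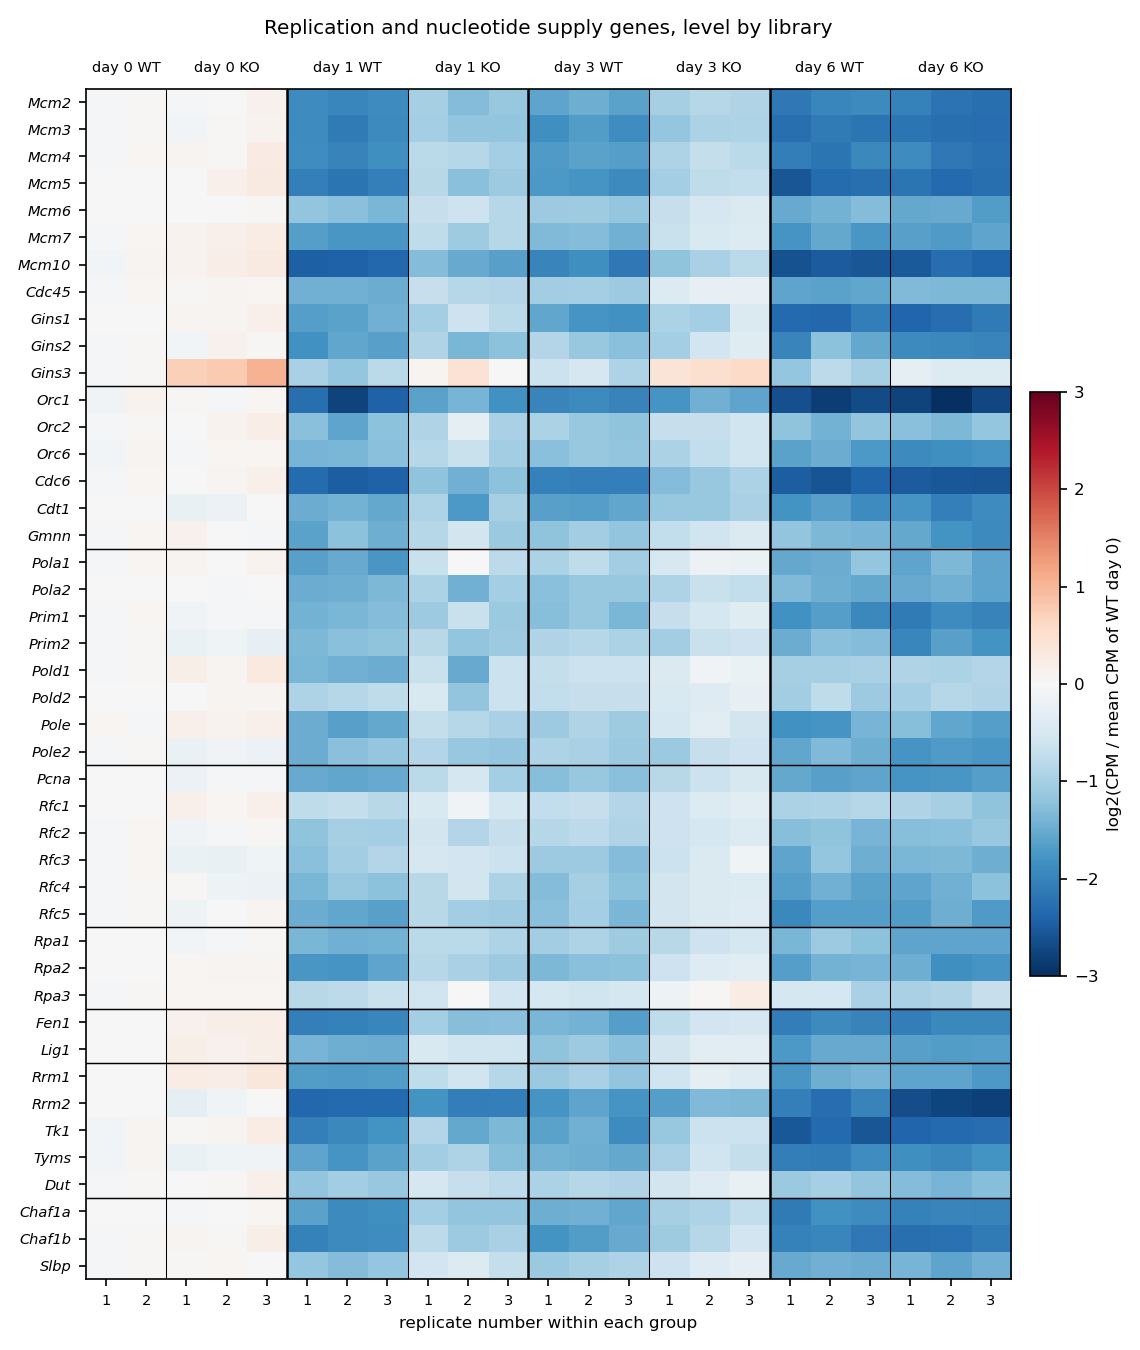
Level of each of the 44 genes (rows, by role) in each of the 23 libraries (columns), as log2 of CPM over the WT day 0 mean. Most values lie below the day 0 level in differentiation medium, and the columns labelled KO on days 1 and 3 are paler than those of WT.

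Tests used edgeR's quasi-likelihood fit over all libraries, with p-values adjusted over all 14187 genes and a threshold of 0.05. In WT, 44 of 44 genes were lower on day 1 than on day 0, where 27.6% of all tested genes were. The same held on day 3 (44 of 44, background 29%) and day 6 (44 of 44, background 31.1%), with median log2FC of -1.51, -1.18 and -1.58. In the KO-labelled libraries, 44, 41 and 44 genes were lower on days 1, 3 and 6, against 25.2%, 27.2% and 33.5% of all genes, with medians of -0.92, -0.62 and -1.73. The 3 genes not called on day 3 were Pola1 (log2FC of -0.33, adjusted p = 0.051), Rfc3 (-0.19, 0.15) and Rpa3 (-0.02, 0.92). The time points of one kind of cell share their day 0 libraries.

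Between WT and the KO-labelled libraries on the same day, 1 of 44 genes was called higher in the KO-labelled libraries on day 0 (background 7.36%). On day 1, 40 of 44 were higher, against 22.9% of all tested genes, and on day 3, 42 of 44, against 24%. The median log2FC was 0.65 on day 1 and 0.62 on day 3, where the median over all tested genes was 0.03 and 0.04, and the log2FC of all 44 genes was above 0 on both days. All 40 genes called on day 1 were also called on day 3, joined by Cdt1 and Pold2. Prim2 and Pole2 were called on neither day. Without replicate 2 of day 1 in the KO-labelled libraries, Prim1 and Rpa3 were not called on day 1, and Cdt1, Prim2 and Pold2 were. On day 6 only 2 genes were higher (background 22%) and 5 lower (background 20.8%), with a median of -0.07. The summed myotube markers were also higher in the KO-labelled libraries, at 147.4 to 215 TPM in WT and 295.6 to 364.1 TPM in the KO-labelled libraries on day 1, and at 3706 to 4043 and 6091 to 10210 TPM on day 3. On day 6, when most of the 44 genes were not called, they were at 3339 to 3968 and 17440 to 20780 TPM. Their part in the result was not tested.

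**Figure D3:**
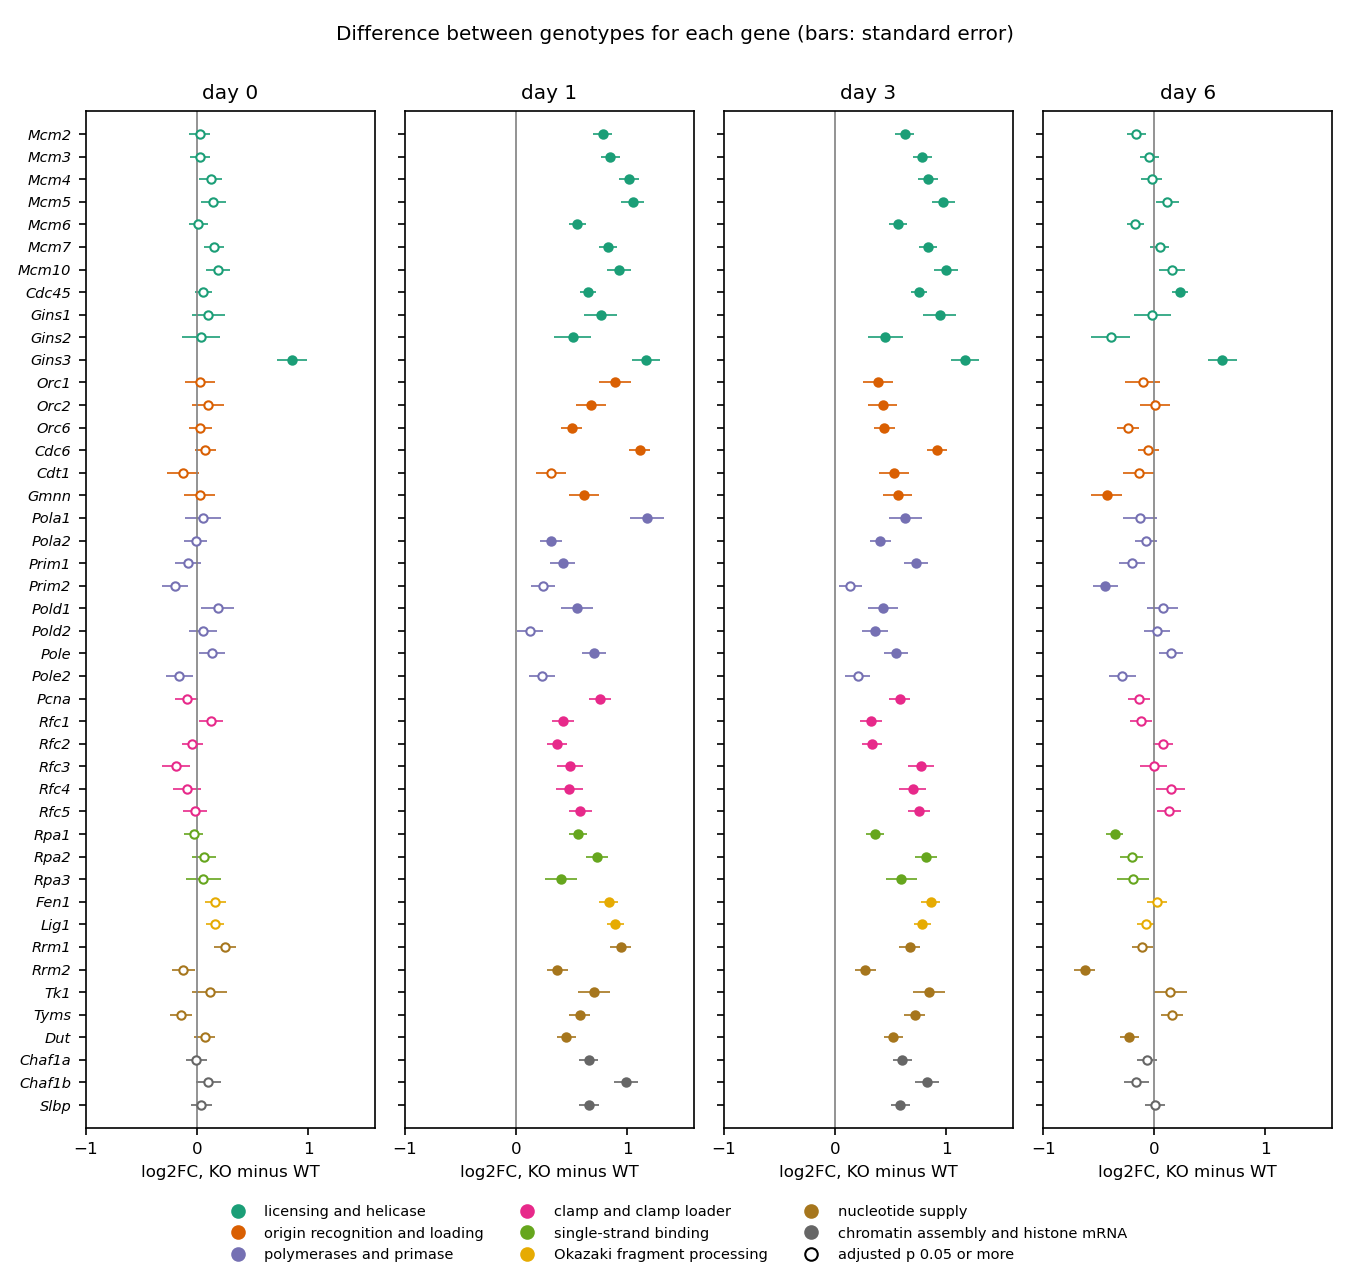
Log2FC of KO-labelled libraries over WT for the 44 genes in 4 panels, 1 for each day, with standard errors as bars and filled points for genes called at an adjusted p under 0.05. Most points are filled and right of 0 on days 1 and 3, and few are filled on days 0 and 6, where Gins3 is filled in both.

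The helicase genes had some of the widest changes. Mcm5, a subunit of the Mcm2-7 ring, stood at 265 and 269 CPM in WT on day 0, 64.1, 58.2 and 64.0 on day 1, 80.8, 78.1 and 70.8 on day 3 and 45.0, 53.8 and 55.6 on day 6. In the KO-labelled libraries it stood at 270.0, 296 and 320.1 CPM on day 0, 149.6, 111 and 126 on day 1, 132, 157 and 161 on day 3 and 58.3, 53.3 and 56.0 on day 6. WT and the KO-labelled libraries did not overlap on days 0, 1 and 3, and overlapped on day 6. In WT, Mcm5 fell on day 1 to 23.2% of its day 0 level (log2FC of -2.10, SE 0.11, adjusted p = 6.4e-13). It was 2.07-fold higher in the KO-labelled libraries on day 1 (log2FC of 1.05, SE 0.10, adjusted p = 2.9e-08) and 1.97-fold higher on day 3 (adjusted p = 5.8e-08). On day 0 its difference was not called (log2FC of 0.15, adjusted p = 0.44).

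The other subunits of the ring followed the same course. Mcm2, Mcm3, Mcm4, Mcm6 and Mcm7 had log2FC between -1.97 (Mcm3) and -1.27 (Mcm6) in WT on day 1, and were between 0.55 (Mcm6) and 1.02 (Mcm4) higher on the log2 scale in the KO-labelled libraries that day. Mcm10, which helps to start the helicase, fell to 18.9% of its day 0 level in WT on day 1, from 49.0 and 54.2 CPM to 9.47, 9.67 and 10.1. It was higher in the KO-labelled libraries on day 1, at 21, 18.0 and 16.7 CPM (log2FC of 0.93, adjusted p = 5.3e-07). Cdc45, the helicase cofactor, differed on days 1, 3 and 6 (log2FC of 0.65, 0.76 and 0.23, the last with SE 0.073 and adjusted p = 0.012). On day 6 WT stood at 19.3, 19.3 and 19.9 CPM and the KO-labelled libraries at 23.2, 22.7 and 22.8, close together but without overlap. That day 6 call was lost without replicate 1 of day 6 in either kind of cell (log2FC of 0.20 at the lowest). By TPM, which is per length, Mcm4 had the lowest mean and Mcm7 the highest of the 6 subunits in all 8 groups, at 78.8 and 173 TPM in WT on day 0.

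Gins3, the Psf3 subunit of the 4-part GINS complex, was the only one of the 44 genes called on all 4 days. It was at 27.1 and 28.1 CPM in WT on day 0 and at 45.0, 47.4 and 57.2 in the KO-labelled libraries (log2FC of 0.86, SE 0.14, adjusted p = 7.9e-05). On day 1 it was at 14.1, 12.4 and 15.6 CPM against 29.4, 37.4 and 27.8, and on day 3 at 17.7, 19.4 and 14.5 against 36.3, 38.7 and 40.9. On day 6 it was at 12.2, 15.9 and 13.7 CPM against 22.5, 20.6 and 20.8, still higher (log2FC of 0.61, SE 0.13, adjusted p = 4.8e-04). WT and the KO-labelled libraries did not overlap on any of the 4 days. Gins3 fell from day 0 in both, by 0.97 on the log2 scale in WT on day 1 and by 0.66 in the KO-labelled libraries, and its fall was not called different between them (adjusted p = 0.40 for the interaction on day 1, 0.34 on day 3 and 0.47 on day 6). Its log2 CPM over the 8 group means also followed the mean of the 44 genes least closely (r of 0.817, against a median of 0.988 over the 44). Gins1 and Gins2 were higher on days 1 and 3 (log2FC of 0.76 and 0.94 for Gins1, 0.51 and 0.45 for Gins2) and were not called on days 0 and 6. Among the 3 GINS genes, Gins3 had the lowest mean TPM in WT on day 0 (18.9) and the highest in the KO-labelled libraries on day 6 (15.2).

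Among the genes of origin recognition and loading, Orc1 had the largest fall of the 44 genes in WT on day 1. It went from 17.3 and 20.1 CPM in WT on day 0 to 3.87, 2.71 and 3.46 on day 1, 18.0% of its starting level, while the KO-labelled libraries were at 6.18, 7.12 and 5.33 CPM on day 1. The groups did not overlap on day 1, and Orc1 was higher in the KO-labelled libraries (log2FC of 0.89, SE 0.14, adjusted p = 2.5e-05). On day 3 it was higher by less (log2FC of 0.38, adjusted p = 0.027). Cdc6, the loader of the Mcm ring, stood at 63.2 and 68.1 CPM in WT on day 0, 13.2, 11.8 and 12.2 on day 1 and 16.1, 15.9 and 15.8 on day 3. The libraries labelled KO were at 64.6, 69.8 and 73.5 CPM on day 0, 28.6, 24 and 27.9 on day 1 and 26.8, 29.8 and 33.9 on day 3. Cdc6 was thus 2.16-fold higher on day 1 (log2FC of 1.11, SE 0.093, adjusted p = 2.3e-09) and 1.89-fold higher on day 3 (adjusted p = 2.5e-08), with overlapping groups on day 0. By day 6 it was at 11.8, 10.9 and 12.5 and 11.7, 11.2 and 11.1 CPM, with overlap.

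Orc2 and Orc6, further subunits of the recognition complex, were higher on day 1 (log2FC of 0.67 and 0.50) and on day 3 (0.43 and 0.44). Without replicate 2 of day 1 in the KO-labelled libraries, the high value of Orc2 that day, its log2FC was 0.39 and that of Orc6 0.38. Cdt1, which brings Mcm2-7 to the origin, and Gmnn, the protein geminin that blocks Cdt1, did not give the same calls. Cdt1 was at 32.7, 34.3 and 31.9 CPM in WT on day 1 and at 48.8, 27.9 and 46.4 in the KO-labelled libraries, where replicate 2 was the low value, and it was not called (log2FC of 0.32, SE 0.13, adjusted p = 0.06). Without that library Cdt1 was called higher (log2FC of 0.51, adjusted p = 6.1e-05). On day 3 Cdt1 was at 29.7, 29.5 and 31.3 CPM in WT and higher, at 41.9, 41.8 and 47.0, in the KO-labelled libraries (log2FC of 0.53, adjusted p = 0.0026). Gmnn was higher on days 1 and 3 (log2FC of 0.61 and 0.56) and lower on day 6, at 7.68, 6.41 and 5.92 CPM against 9.71, 8.74 and 8.47 in WT (log2FC of -0.43, adjusted p = 0.017). Its day 1 log2FC was 0.42 without replicate 2 of that day in the KO-labelled libraries. The day 6 call of Gmnn was lost without replicate 2 or replicate 3 of day 6 in the KO-labelled libraries or replicate 1 of day 6 in WT.

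Of the polymerase and primase genes, 5 of 8 were higher in the KO-labelled libraries on day 1, where 22.9% of all tested genes were. The count was 6 without replicate 2 of that group. The median log2FC of the 8 was 0.37, against 0.83 over the 11 helicase genes. Pola1, the catalytic subunit of polymerase alpha, had the largest log2FC of the 44 genes that day (log2FC of 1.18, SE 0.15, adjusted p = 1.9e-06). WT stood at 13.1, 14.3 and 12.1 CPM and the KO-labelled libraries at 25.4, 40.3 and 23.7, where replicate 2, the library that stood apart, was the highest. Without that library the log2FC was 0.88, still called, and Cdc6 had the largest of the 44 (1.17). Pole, the catalytic subunit of polymerase epsilon, was also higher (log2FC of 0.70), as was Pold1, that of polymerase delta (0.55), although Pold1 stood at 40.1, 22.1 and 40.7 CPM in the KO-labelled libraries, with replicate 2 below the WT values of 24.5, 23.3 and 22.4 (log2FC of 0.77 without it).

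Day 1 differences were smaller for the accessory subunits and the primase. Pola2 and Prim1, an accessory polymerase alpha subunit and the catalytic primase subunit, had log2FC of 0.31 and 0.42 on day 1. Without replicate 2 of day 1 in the KO-labelled libraries, Prim1 was no longer called on day 1 (log2FC of 0.24, adjusted p = 0.0523). On day 3 Prim1 had the largest log2FC of the 8 genes (0.73, adjusted p = 8.5e-06), at 20.2, 22.3 and 18.8 CPM in WT and 30.0, 34.0 and 37.8 in the KO-labelled libraries. Prim2, the large primase subunit, was at 21.4, 22.7 and 23.6 CPM in WT and 30.4, 24.1 and 25.6 in the KO-labelled libraries on day 1 (log2FC of 0.24, adjusted p = 0.073, or 0.29 and 0.0401 without replicate 2), and on day 3 its log2FC was 0.14 (adjusted p = 0.31). Pole2 had log2FC of 0.23 and 0.20 (adjusted p = 0.11 and 0.15). Pold2 was at 45.6, 48.2 and 51.0 CPM in WT on day 1 and 63.2, 38.6 and 56.1 in the KO-labelled libraries, where replicate 2 was the low value (log2FC of 0.12, adjusted p = 0.42). Without that library Pold2 was called higher (log2FC of 0.28, adjusted p = 0.00911). It was higher on day 3 (0.36, adjusted p = 0.017). On day 6 Prim2 was lower in the KO-labelled libraries, at 14, 17.6 and 15.6 CPM against 19.4, 22.6 and 22.1, without overlap (log2FC of -0.44, SE 0.11, adjusted p = 0.0025).

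Pcna, the clamp that holds the polymerases on DNA, was at 266 and 270.2 CPM in WT on day 0, 94.0, 91.2 and 93.5 on day 1, 110.5, 123 and 112 on day 3 and 92.8, 86.7 and 88.9 on day 6. The libraries labelled KO were at 238, 256 and 261 CPM on day 0, 153, 185 and 132 on day 1, 151, 172 and 194 on day 3 and 78.6, 79.7 and 85.5 on day 6. Those labelled KO were therefore the lower ones on days 0 and 6 and the higher ones on days 1 and 3, without overlap on any day. The test called the differences on day 1 (log2FC of 0.76, SE 0.096, adjusted p = 1.4e-06) and day 3 (0.58, 3.1e-05) and not those on day 0 (-0.09, 0.65) and day 6 (-0.14, 0.26). All 5 clamp loader genes were higher on days 1 and 3, with log2FC from 0.37 (Rfc2) to 0.58 (Rfc5) on day 1 and from 0.32 (Rfc1) to 0.77 (Rfc3) on day 3. Without replicate 2 of day 1 in the KO-labelled libraries, the day 1 log2FC was 0.60 for Pcna and 0.33 for Rfc4 (adjusted p = 0.034). The lowest of the 5 was then Rfc1 (0.26) and the highest Rfc5 (0.59). Rfc1, the large subunit, had one of the smallest falls in WT, to 58.6% of the day 0 level on day 1, and its day 1 log2FC of 0.42 between WT and the KO-labelled libraries was 0.26 without replicate 2 of the latter. Rfc4 had the lowest mean TPM of the 5 in all 8 groups.

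The single-strand binding proteins coat the unwound strand. Rpa1, the large subunit, was at 74.8, 71.7 and 72.6 CPM in WT on day 1 and higher, at 110.2, 111 and 102, in the KO-labelled libraries (log2FC of 0.56, adjusted p = 5.4e-06). By day 6 the order had turned, with 75.0, 91.0 and 82.9 CPM in WT and 64.4, 64.9 and 65.2 in the KO-labelled libraries, and Rpa1 was lower there (log2FC of -0.36, SE 0.079, adjusted p = 7.7e-04). Rpa2 was higher on days 1 and 3 (log2FC of 0.73 and 0.82). Rpa3, the smallest subunit, stood at 9.86, 10.2 and 11.2 CPM in WT on day 1 and at 11.6, 17.8 and 11.8 in the KO-labelled libraries, where replicate 2 was the high value (log2FC of 0.40, adjusted p = 0.028). Without that library the log2FC was 0.15 (adjusted p = 0.384), and the call was also lost without replicate 1 or replicate 2 of day 1 in WT. On day 3 Rpa3 was higher (log2FC of 0.60, adjusted p = 0.0015). Rpa3 also had the smallest fall of the 44 genes in WT on day 1 (log2FC of -0.76).

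Fen1, the nuclease that trims Okazaki flaps, and Lig1, the ligase that seals the nicks, both fell in WT and were both higher in the KO-labelled libraries on days 1 and 3. Fen1 was at 82.1 and 83.8 CPM in WT on day 0 and at 20.1, 20.2 and 21.2 on day 1, against 40.7, 34.4 and 34.6 in the KO-labelled libraries (log2FC between them of 0.83, adjusted p = 1.0e-07). Lig1 went from 130.4 and 129 CPM to 49.3, 47.0 and 46.5 in WT, against 94.3, 86.2 and 85.1 in the KO-labelled libraries (log2FC of 0.89, adjusted p = 2.3e-09). Neither gene's groups overlapped on day 1. On day 6 neither was called (log2FC of 0.02 and -0.08).

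Among the nucleotide supply genes, the 2 subunits of ribonucleotide reductase did not move by the same amount. Rrm2, the small, cell-cycle-dependent subunit, was at 531 and 544 CPM in WT on day 0 and 105, 106 and 107 on day 1, and at 448, 492 and 541 and 154, 128 and 129 in the KO-labelled libraries. On day 1 Rrm2 was 1.29-fold higher in the KO-labelled libraries (log2FC of 0.37, adjusted p = 0.0033), whereas Rrm1, the large subunit, was 1.92-fold higher (log2FC of 0.94, adjusted p = 3.2e-08). Rrm1 stood at 80.7, 79.5 and 80.9 CPM in WT and 152, 169.9 and 141 in the KO-labelled libraries that day. On day 3 Rrm2 was higher by a log2FC of 0.27 (adjusted p = 0.024). On day 6 Rrm2 was lower in the KO-labelled libraries, at 84.8, 80.1 and 77.0 CPM against 129, 109 and 135 in WT, without overlap (log2FC of -0.63, SE 0.097, adjusted p = 1.3e-05), while Rrm1 was not called (-0.11, 0.38). The ratio of Rrm2 to Rrm1 in TPM, a measure chosen after these values were seen, was 4.01 to 4.03 in WT and 2.89 to 3.21 in the KO-labelled libraries on day 0. It was 2.49 to 2.56 against 1.46 to 1.94 on day 1, 2.55 to 2.71 against 1.94 to 2.07 on day 3 and 2.25 to 3.25 against 1.81 to 1.91 on day 6, lower in the KO-labelled libraries on every day without overlap.

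Tk1, thymidine kinase of the salvage route, was at 156 and 173 CPM in WT on day 0 and 28.1, 32.8 and 27.8 on day 6, and at 168, 174 and 192 and 31.8, 32.7 and 33.5 in the KO-labelled libraries. It was higher in the KO-labelled libraries on days 1 and 3 (log2FC of 0.70 and 0.84). Tyms, which makes thymidylate, was higher by 0.57 and 0.72 on the log2 scale on those days. Dut, which removes dUTP, was higher by 0.45 and 0.52, and was lower on day 6 (log2FC of -0.22, adjusted p = 0.043). That call was lost without replicate 2 of day 0 in either kind of cell, replicate 2 or replicate 3 of day 6 in the KO-labelled libraries or replicate 2 of day 6 in WT. Rrm2 and Pcna had the highest levels per length of the 44 genes in WT on day 0, at 412 and 385 TPM, and Orc1 the lowest, at 10.2 TPM.

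Chaf1a and Chaf1b, subunits of the CAF-1 complex that places histones behind the fork, and Slbp, which binds the stem-loop of histone mRNA, were all higher on both days. Chaf1b was at 14.9, 16.3 and 16.7 CPM in WT on day 1 and at 35.6, 28.7 and 30.8 in the KO-labelled libraries (log2FC of 0.99, SE 0.11, adjusted p = 1.5e-07). Chaf1a and Slbp had log2FC of 0.65 and 0.66 on day 1, and 0.61 and 0.59 on day 3. None of the 3 was called on day 6. Gins2, Chaf1a, Orc2, Rfc2, Rfc4 and Rfc5 share at least 10% of their exon bases with a gene on the opposite strand (67.3% for Gins2 with Gse1, 52.5% for Chaf1a with Ubxn6). The use of strand in counting is not given in the sources used here, so reads of these pairs may not be told apart.

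The partial rise after day 1 was smaller than the first fall. From day 1 to day 3, 21 of 44 genes rose in WT (background 11%) and 19 in the KO-labelled libraries (background 15.5%), with medians of 0.29 and 0.25. The 12 genes that rose in both were 57.1% of those in WT and 63.2% of those in the KO-labelled libraries. Pold1 rose by 0.76 on the log2 scale in WT, the largest rise there, and by 0.64 in the KO-labelled libraries. The latter was 0.38 without replicate 2 of day 1, below the rise of Rpa3 (0.61, against 0.40 with that library). All 5 nucleotide supply genes rose in the KO-labelled libraries, Tk1 not without that library (log2FC of 0.28, adjusted p = 0.139), and 2 (Rrm1 and Rrm2) rose in WT. The count in WT was 13 without replicate 2 of day 3 in WT. The count in the KO-labelled libraries was 11 without replicate 2 of day 3 and 12 without replicate 3 of day 1. It was 5 in a fit of the compared groups only.

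From day 3 to day 6 most of the genes fell further in the KO-labelled libraries than in WT. There 44 of 44 fell, against 21.2% of all genes, and the median log2FC was -1.11. In WT 28 fell, against 4.92% of all genes, with a median of -0.41. Tk1 fell most in both, to 34.2% and 55.5% of the day 3 level, from 75.1, 106 and 106 CPM to 31.8, 32.7 and 33.5 in the KO-labelled libraries and from 54.3, 60.6 and 44.8 to 28.1, 32.8 and 27.8 in WT. The difference between these steps was tested in a contrast added after the data had been seen. The step was lower in the KO-labelled libraries for 37 of 44 genes, against 5.99% of all genes, with a median of -0.73. Rpa2 had the largest difference (-1.03, SE 0.14, adjusted p = 8.9e-05). It stood at 14.5, 15.6 and 15.8 CPM in WT on day 3 and 11.7, 13.8 and 14 on day 6, against 23.9, 28.1 and 28.9 and 13.3, 10.3 and 10.8 in the KO-labelled libraries. The 7 genes without a called difference were Orc1, Orc2, Pold1, Pold2, Pole, Pole2 and Rfc2. The steps of WT and of the KO-labelled libraries share no libraries.

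**Figure D4:**
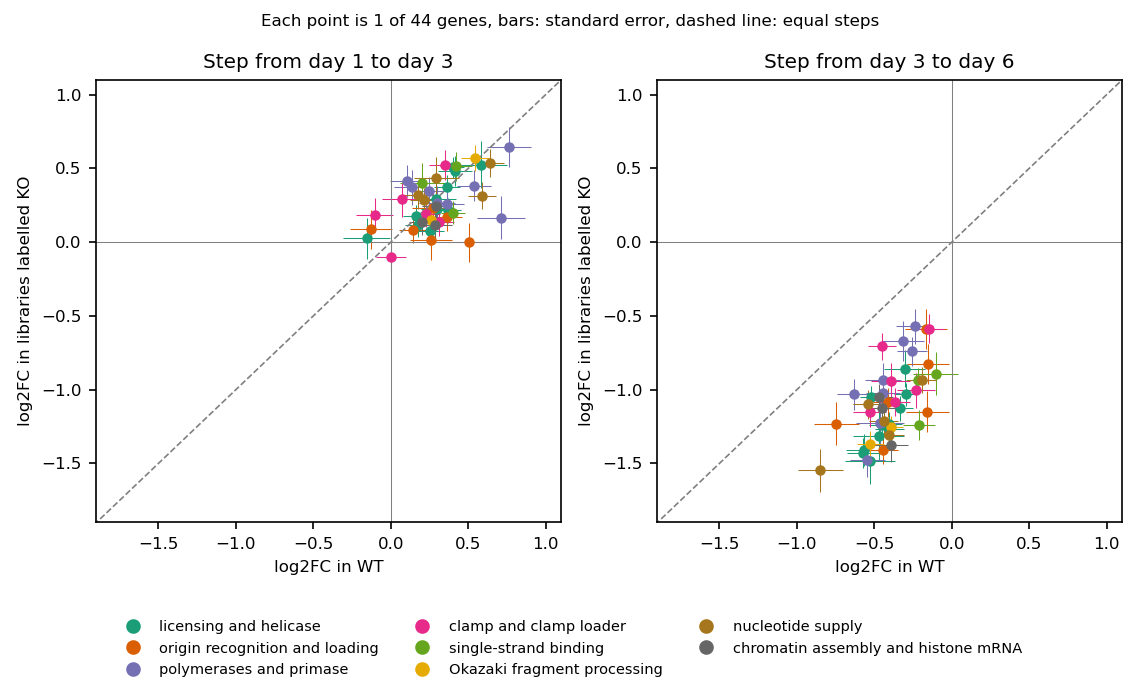
Log2FC of the 44 genes from day 1 to day 3 (left) and from day 3 to day 6 (right), in WT (x axis) and in KO-labelled libraries (y axis), with standard errors as bars and colours for role. On the left the medians are 0.29 and 0.25, and on the right the points lie below the dashed line of equal steps, with medians of -0.41 and -1.11.

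The change from day 0 was itself compared between WT and the KO-labelled libraries. On day 1 it differed for 24 of 44 genes, all with a smaller fall in the KO-labelled libraries (background 2.64%), and on day 3 for 26 (background 6.65%), with a median difference of 0.59 on the log2 scale on both days. The helicase genes gave 8 and 9 of their 11 members on the 2 days, the polymerase and primase genes 2 and 1 of 8. Pola1 had the largest difference on day 1 (1.12, adjusted p = 0.0046). Without replicate 2 of day 1 in the KO-labelled libraries it was 0.80, and that of Cdc6 was the largest (1.06, against 1.04 with it). Rfc3 differed most on day 3 (0.96, adjusted p = 5.0e-04). Rfc3 stood at 49.2 and 54.1 CPM in WT on day 0 and 24.3, 24.4 and 20.8 on day 3, against 44.9, 43.9 and 46.9 and 33.2, 38.4 and 47.0 in the KO-labelled libraries. Without replicate 2 of day 1 in the KO-labelled libraries, 29 genes differed on day 1, and without replicate 2 of day 0 in WT, 15. On day 6 only Rrm2 differed, with a larger fall in the KO-labelled libraries (-0.51, adjusted p = 0.02, background 5.42%), and no call was left without replicate 1 or replicate 2 of day 0 in WT, replicate 3 of day 0 or replicate 3 of day 6 in the KO-labelled libraries. 6 calls were made without replicate 2 of day 1 in the KO-labelled libraries.

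The day 6 counts also moved with the processing. With the library size alone, 1 of the 44 genes was higher and 11 lower in the KO-labelled libraries on that day, and with limma on log2(TPM + 1) 1 was higher and 14 lower, in place of 2 and 5. It moved with single libraries too: 11 were lower without replicate 2 of day 1 and 8 without replicate 1 of day 3 in the KO-labelled libraries, 9 without replicate 1 of day 6 in WT, and 3 without replicate 2 or replicate 3 of day 6 in the KO-labelled libraries. Only 1 gene was higher without replicate 1 of day 6 in either kind of cell. The day 0 count was 3 without replicate 2 of day 1 in the KO-labelled libraries and 2 without replicate 1 of day 6 in WT.

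Some single-gene differences on days 1 and 3 were no longer called when 1 library was left out, all with the same direction. On day 1 these were Gins2 without replicate 1 of that day in either kind of cell (adjusted p up to 0.103) and Pola2 without replicate 1 of day 1 in either or replicate 3 of the KO-labelled libraries (up to 0.0901), beside Prim1 and Rpa3 given above. On day 3 Gins2 was not called without replicates 2 or 3 of either kind of cell (up to 0.175), Orc2 without replicates 2 or 3 of WT (up to 0.0800), and Rfc1 without replicate 3 of either (up to 0.0581). Pold1 lost its day 3 call without replicate 2 of the KO-labelled libraries (0.0631), and Pold2 without replicate 3 of those or replicates 1 or 2 of WT (up to 0.0808). Orc1 lost it without any WT library of day 3, replicates 2 or 3 of day 3 in the KO-labelled libraries, replicate 1 of day 0 or day 6 in either kind of cell, or replicate 3 of day 6 in WT (adjusted p up to 0.125). Rrm2 lost it without replicates 1 or 3 of day 3 in WT, replicates 2 or 3 of day 3 in the KO-labelled libraries, replicate 1 of day 0 or replicates 1 or 2 of day 1 in WT, or replicate 1 of day 6 in either (up to 0.108).

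Other genes of the same pathways were taken from lists that the 44 genes do not enter. Of 32 further fork and origin genes, 28 fell in WT on day 1 and 1 rose (27.6% and 27.1% of all tested genes did), with Recql4 (-2.06), Pclaf (-1.97) and Dna2 (-1.92) falling furthest. On day 1, 25 of them were higher in the KO-labelled libraries (22.9% of all tested genes were), among them Pclaf (log2FC of 1.00), a Pcna partner, and Topbp1 (1.00), and Pold4, the small subunit of polymerase delta, was lower (-0.44). Pold4 was not called without its low value, replicate 2 of day 1 in the KO-labelled libraries (log2FC of -0.28, adjusted p = 0.0600). Of 26 further nucleotide genes, 20 fell and 3 rose in WT on day 1, against the same shares of all genes. In the KO-labelled libraries 17 were higher that day, among them Shmt1 (1.06) and Ctps (1.02), and 3 were lower, Samhd1 (-0.42), a dNTP hydrolase, among them, where 22.9% and 19.2% of all tested genes were. On day 6, 8 were higher and 4 lower, near the shares of all genes (22% and 20.8%), and the one-carbon enzymes Shmt2 (0.99), Shmt1 (0.99) and Mthfd2 (0.95) led the higher ones. Of 13 further chromatin genes, 13 fell in WT on day 1 (background 27.6%), and 12 were higher in the KO-labelled libraries on day 1 (background 22.9%), among them Hells (1.27), a chromatin remodeller, and Cdca7 (0.91). Their log2FC were 0.93 and 0.91 without that replicate 2, the high value of Hells, and the counts of higher genes in the 3 lists were 23, 14 and 11.

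Of 8 genes linked to cell cycle exit, 6 rose in WT on day 1 (27.1% of all tested genes did), and 3 were lower in the KO-labelled libraries that day (19.2% of all tested genes were), or 5 without replicate 2 of day 1 in those libraries. The cyclin-dependent kinase inhibitor Cdkn1c was the lowest (log2FC of -2.86, SE 0.37, adjusted p = 2.1e-06), at a low level of 1.91, 1.87 and 2.39 CPM in WT and 0.226, 0.293 and 0.313 in the KO-labelled libraries, without overlap. Btg2 (-0.40) and Cdkn1b, another inhibitor (-0.20), were lower by less. The gap in Cdkn1c was already there in growth medium. On day 0 it stood at 1.496 and 1.389 CPM in WT and at 0.04537, 0 and 0.09268 in the KO-labelled libraries, without overlap. On day 6 Cdkn1c was still lower (-1.75), while Cdkn1a (1.03), the inhibitor p21, and Rb1 (0.77), the retinoblastoma protein, were higher.

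Over the 8 group means of log2 CPM, the non-member genes whose course was most like the mean of the 44 included Exo1 (r of 0.9999), Suv39h1, Chek1, Nucks1, Cenps, Bora, Vrk1, Siah1b and Erh (0.9965). These 8 means share libraries and normalisation with the 44 genes, and the correlation is a description. Across the 44 genes, the change from day 0 to day 1 in WT and in the KO-labelled libraries, which share no libraries, had a Pearson r of 0.88 (Spearman rho of 0.86), and that to day 6 an r of 0.93 (rho of 0.90). The order of the genes by size of fall was thus much alike in both kinds of cell, with Orc1, Mcm10, Cdc6 and Rrm2 at one end and Rpa3, Rfc1 and Pold2 at the other in WT on day 1.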

How the data were processed

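RNA was poly(A)-selected and sequenced in 23 libraries of 8 groups. The authors deposited a table of estimated counts per gene and a table of TPM values. The submitters' processing notes name Bowtie2, RSEM and the mouse build mm10, with no version or role, and the annotation and use of strand are not given in the sources used here. The deposited estimated counts were whole numbers, so rounding changed nothing. In R 4.3.3 with edgeR 4.0.16, genes were kept by filterByExpr (minimum count 10, minimum total 15), scaled by TMM and fitted with 1 mean per group, without a replicate block. Quasi-likelihood F-tests gave 18 contrasts, with Benjamini-Hochberg adjustment over all 14187 genes in each and a threshold of 0.05. CPM used the TMM-scaled library size, and log2 CPM a prior count of 2. The log2FC came from the fit, with edgeR's default prior count. SE was calculated as the absolute log2FC over the square root of the F statistic. The deposited TPM values were used as given for shares and for levels of different genes. Members of the group and the other lists were chosen with earlier results of these data known, and no test is given over a list. All 44 genes may be named in each contrast; of other lists, at most the 3 highest and the 3 lowest log2FC past the threshold, and the 10 genes most like the mean of the 44. Of the genes this rule names outside the 44, 1 is not reported here. Alternatives changed the scaling, filter, pseudocount, tool (DESeq2 1.42.0, limma 3.58.1), threshold, samples and replicate block. The tests were tried on simulated data first. Replicate numbers did not pair the samples: correlations of same-numbered deviations ran from -0.24 to 0.125.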

Additional observations from a re-analysis of the deposited data

Results flagged for a closer look

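Several results differed between the kinds of cell by a test of the difference itself, in the edgeR fit with p-values adjusted over all genes tested. The change from day 0 differed on day 1 for 24 of 44 genes (background 2.64%), with a smaller fall in the KO-labelled libraries. Among them were Pola1 (1.12 on the log2 scale), Cdc6 (1.04) and Mcm5 (0.91). Without replicate 2 of day 1 in the KO-labelled libraries, the values were 0.80 for Pola1, 1.06 for Cdc6 and 0.96 for Mcm5. On day 3 the change differed for 26 (background 6.65%), among them Rfc3 (0.96), Tyms (0.86) and Cdc6 (0.84). On day 6 it differed for 1 (background 5.42%), Rrm2, which fell further in the KO-labelled libraries (-0.51). The step from day 3 to day 6 differed for 37 genes, led by Rpa2 (-1.03), Gmnn (-0.99) and Chaf1b (-0.99), with the larger fall in the KO-labelled libraries.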

How the results depend on the processing

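Of 551 single-gene calls, none reversed under any alternative. The number lost was 7 with DESeq2's size factors, 9 with library size alone, 9 without the filter, 8 with a mean count of at least 50, 34 and 37 with limma on log2(TPM + 1) and log2(TPM + 0.1), 28 with a fit of the compared groups only, 4 with DESeq2, 57 at an adjusted p under 0.01, 332 with an absolute log2FC of at least 1, and 68 in at least 1 fit without a library. With the replicate block, which the data did not justify, 5 were lost, and the counts on days 1 and 3 stayed at 40 and 42. Counts that moved by over 1.5 times, or are given as ranges over fits without 1 library, follow. Higher on day 0: 4 from the compared groups, 0 at an absolute log2FC of at least 1, range 1 to 3. Day 6 higher: 1 with library size, no filter, both TPM pseudocounts, the compared groups or the 0.01 threshold, 0 with the log2FC minimum, range 1 to 2. Day 6 lower: 11 with library size, 14 with both TPM pseudocounts, 3 at 0.01, 0 with the log2FC minimum, range 3 to 11. The log2FC minimum left 5 genes on day 1 and 1 on day 3 for KO against WT, and 18 and 5 for the fall to days 1 and 3 in the KO-labelled libraries. Day 1 to 3 in WT: 12 at 0.01, 0 with the minimum, range 13 to 26. The same step in the KO-labelled libraries: 5 from the compared groups, 11 at 0.01, 0 with the minimum, range 11 to 25. Day 3 to 6 in WT: 0 with the minimum. Differences of change: 2 on day 1 with the minimum (range 15 to 31) and 0 on day 3. On day 6 there were 3 and 2 with the TPM pseudocounts 1 and 0.1, 2 from the compared groups, 2 with DESeq2, 0 at 0.01 or with the minimum, range 0 to 6. The difference of steps kept 1 with the minimum. As shares of estimated counts in place of TPM, the 44 genes held 0.470%, 0.158%, 0.197% and 0.153% in WT and 0.466%, 0.244%, 0.290% and 0.135% in the KO-labelled libraries on days 0, 1, 3 and 6. The ratio of the highest to the lowest of Mcm2 to Mcm7 on day 3 in the KO-labelled libraries was 2.869 by medians. Library-size scaling moved the all-gene median log2FC of WT day 6 to 0.13 and log2(TPM + 1) to 0.15, and on day 6 the log2FC of KO over WT to -0.07 and -0.10. With log2(TPM + 1), the share of higher calls among all genes went from 54.4% to 43.3% on day 1. It went from 55.5% to 34.3% on day 3 and from 51.4% to 34.9% on day 6. Counts were lowest for Orc1 (55 to 433) and Gins1 (62 to 342), which limits their precision.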
